A study of Mus musculus with 6 samples.

Results

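Integrins are the heterodimeric adhesion receptors of the megakaryocyte and platelet surface, and 9 of their subunit genes were followed here: Itga2b, Itgb3, Itgav, Itgb1, Itga6, Itga5, Itga4, Itgb2 and Itgal. Every probe set that the platform annotation gives to 1 of these genes alone was taken, which made 28 probe sets of 45101 and 9 genes of the 18194 that probe sets name singly. The probe sets were taken by gene name, and the 9 genes had been picked with earlier results of these data known. Megakaryocytes had been grown from mouse fetal liver cells with thrombopoietin, and mature cells were then collected on a bovine serum albumin gradient. The 3 FOG1 ki/ki arrays came from cultures labelled FOG1-/- ki/ki, and the 3 control arrays from FOG1+/- cultures (replicates 1 and 2) and a FOG1+/+ culture (replicate 3). All 6 were on a mixed C57BL/6xSv129 background. The labels give neither the change carried by the knocked-in allele nor an embryonic age, and they do not say whether cultures came from single embryos.

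Each integrin pairs an alpha with a beta subunit, and the pair sets the ligand. The product of Itga2b joins that of Itgb3 to form the fibrinogen receptor, the most abundant integrin of platelets and the one that links them in a clot. Itgav can replace Itga2b in a vitronectin receptor, Itgb1 joins Itga6, Itga5 or Itga4 in receptors for laminin, for fibronectin and for fibronectin and VCAM-1, and Itgb2 joins Itgal in the leukocyte receptor LFA-1. FOG1, encoded by Zfpm1, binds GATA factors, and GATA1 with FOG1 is required for megakaryocyte development.

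Because FOG1 acts through GATA factors, the start regions of the defining megakaryocyte subunit gene and of the only subunit gene measured higher in all 3 replicate numbers are shown, as 250 bases upstream of the RefSeq start in build GRCm38.p6, read 5′ to 3′ along the gene. Itga2b lies on the minus strand (chr11:102469884-102470133) and Itga4 on the plus strand (chr2:79255176-79255425). Capitals mark GGAA or its complement TTCC, the core of ETS factor sites.
Itga2b upstream: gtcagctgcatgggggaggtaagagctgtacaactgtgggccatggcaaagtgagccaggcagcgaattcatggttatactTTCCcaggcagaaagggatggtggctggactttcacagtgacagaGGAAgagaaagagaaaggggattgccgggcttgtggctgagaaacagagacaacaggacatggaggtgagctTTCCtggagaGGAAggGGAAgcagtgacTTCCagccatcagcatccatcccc
Itga4 upstream: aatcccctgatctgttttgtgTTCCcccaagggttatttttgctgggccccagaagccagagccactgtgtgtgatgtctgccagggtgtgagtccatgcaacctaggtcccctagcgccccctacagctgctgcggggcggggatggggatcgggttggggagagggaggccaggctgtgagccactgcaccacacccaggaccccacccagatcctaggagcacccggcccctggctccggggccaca
The Itga2b window held 6 such cores and the Itga4 window 1, where 93.4% of 32851 RefSeq windows of the same length held at least 1. The GATA words AGATAA and AGATAG, and likewise TGATAA and TGATAG, searched on both strands, occurred in neither window, and 26.5% of all windows held at least 1. These matches describe letters in a window and not bound sites. Start windows matched 5 of the 9 genes by symbol, these 2 and Itgav, Itgb1 and Itga5.

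The values were MAS5 signals, a linear brightness per probe set, and each array as deposited had the same 2% trimmed mean of 150. The median signal ran from 5.93 to 12.3 over the FOG1 ki/ki arrays and from 7.75 to 12.2 over the control arrays, with replicate 3 the lowest of each. Arrays with the same replicate number resembled each other, with deviations from the group means correlated at 0.438, 0.648 and 0.597, so differences are also given within each number. Zfpm1 itself read 480, 868 and 1274 in FOG1 ki/ki replicates 1, 2 and 3, against 430, 862 and 1137 in control replicates 1, 2 and 3, which does not check the genotype since a knocked-in allele can be transcribed. The 17 megakaryocyte markers on the array summed to signals of 27103 to 34758 in FOG1 ki/ki and 30455 to 39196 in control, so transcripts of the labelled cell type were abundant in both groups. Of those 17, 15 lay below control, with a median log2 difference of -0.22, and 1, Gp6, was called, with the replicate block alone. The ratio of 3′ to 5′ signal of Gapdh, a sign of RNA quality, rose with replicate number in both groups. It was 1.2, 1.63 and 2.38 in FOG1 ki/ki replicates 1, 2 and 3, and 1.24, 1.74 and 1.86 in control replicates 1, 2 and 3. The same ratio for actin was 1.36, 2.06 and 2.76 in FOG1 ki/ki, and 1.44, 2.11 and 1.93 in control. FOG1 ki/ki replicate 3 had the highest ratio of all arrays for both genes.

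No integrin probe set passed the test between FOG1 ki/ki and control. The test was limma on log2(signal + 16), with Benjamini-Hochberg adjustment over the 22519 probe sets left after the dimmer 50% were removed and a threshold of 0.05. Of the 28 integrin probe sets 21 were tested, and 0 were called, where 0.0666% of all tested probe sets were called. With the replicate number as a block 0 of 21 were again called, where 0.524% of all were. At an unadjusted p under 0.05 there were 3 integrin probe sets without the block and 5 with it, against 5.84% and 14.9% of all tested. The 7 probe sets left out as dim belonged to Itgb1 (1), Itga5 (2), Itga4 (1) and Itgav (3), and their signals lay between 0.0637 and 15.6. Of the 21 tested integrin probe sets 14 lay below control and 7 above it, where 45.9% of all tested probe sets lay below. By the brightest probe set 8 of the 9 genes lay below control and 1, Itga4, above it. The median log2 difference was -0.09 over the 9 genes and 0.026 over all tested probe sets.

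**Figure D1:**
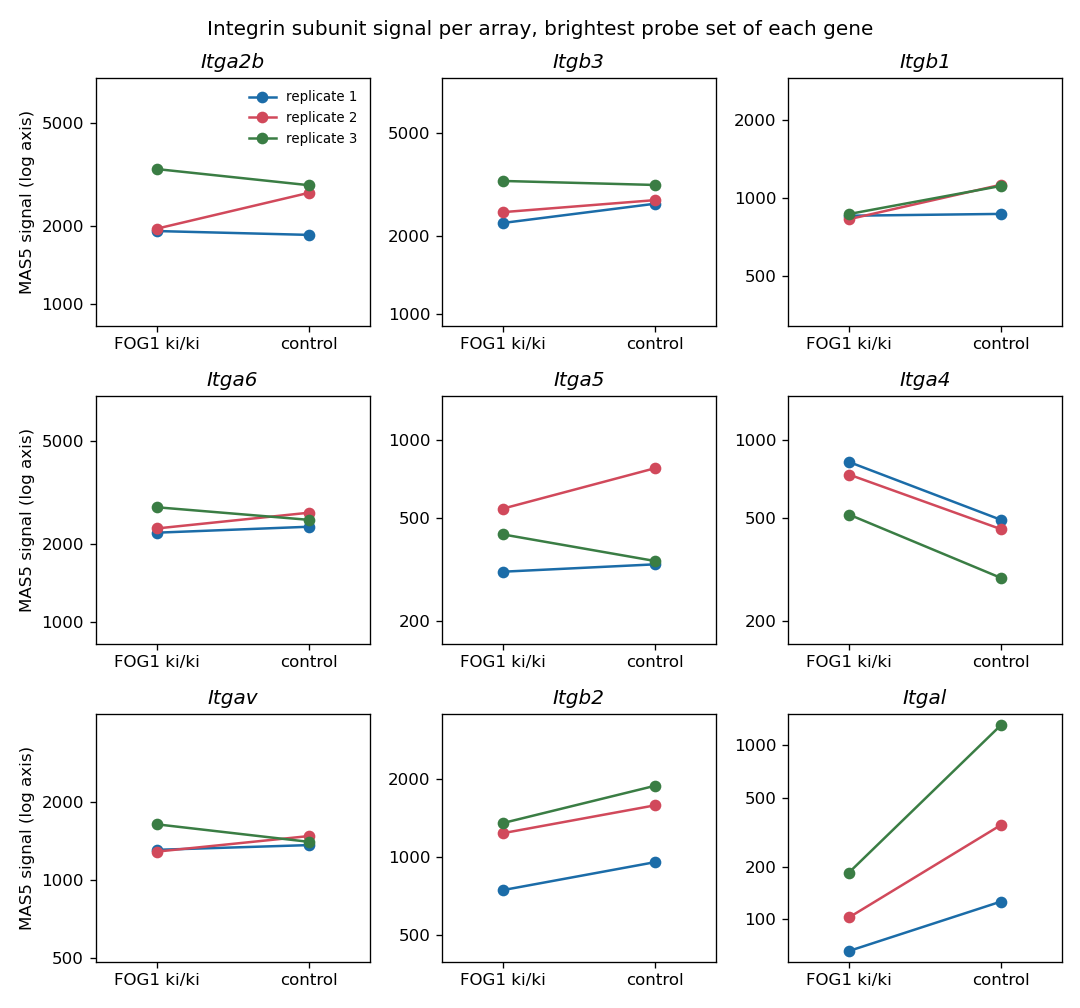
MAS5 signal (log axis) of the brightest probe set of each of the 9 integrin genes on the 6 arrays, FOG1 ki/ki at the left and control at the right of each panel, with a line joining arrays of the same replicate number. The lines of Itga4 slope down to control in all 3 numbers, those of Itgb1, Itgb2 and Itgal slope up, and the other 5 genes have lines in both directions.

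The 2 subunits of the fibrinogen receptor were bright on all arrays. Itga2b, the alpha subunit that marks the lineage, read 1907, 1947 and 3309 in FOG1 ki/ki replicates 1, 2 and 3 (mean 2388 ± 798, SD, n = 3), against 1843, 2679 and 2867 in control replicates 1, 2 and 3 (2463 ± 545, SD, n = 3). The groups overlapped, and the highest value was a FOG1 ki/ki array. Its log2 difference was -0.067 (SE 0.25, limma adjusted p = 0.9999), with a 95% interval of -0.64 to 0.50, or a signal between 0.643 and 1.42 times that of control. Within replicate numbers the log2 difference was 0.05, -0.46 and 0.21, so the small mean held differences of both signs. Its sign also depended on single arrays, at 0.069 when replicate 1 of FOG1 ki/ki was left out and -0.33 when its replicate 3 was.

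Itgb3, the beta subunit shared by the fibrinogen and vitronectin receptors, read 2245, 2472 and 3262 in FOG1 ki/ki replicates 1, 2 and 3, against 2664, 2751 and 3148 in control replicates 1, 2 and 3. The groups overlapped, with replicate 3 the highest array of both. The log2 difference was -0.12 (SE 0.15, limma adjusted p = 0.9999, 95% interval -0.47 to 0.24). It was -0.0035 when replicate 1 of FOG1 ki/ki was left out and -0.27 when its replicate 3 was. A second, dimmer Itgb3 probe set read 224, 369 and 744 in FOG1 ki/ki and 327, 529 and 684 in control, in order of replicate number. It had a log2 difference of -0.30 (95% interval -1.31 to 0.72), and both Itgb3 probe sets were lower in replicate numbers 1 and 2 and higher in number 3.

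Itgav, the alpha subunit of the vitronectin receptor, had the difference closest to 0 of the 9 genes. It read 1307, 1286 and 1640 in FOG1 ki/ki replicates 1, 2 and 3, against 1363, 1477 and 1404 in control replicates 1, 2 and 3. Here FOG1 ki/ki replicate 3 stood highest and the groups overlapped. Itgav differed by -0.012 on the log2 scale (SE 0.14, limma adjusted p = 0.9999, 95% interval -0.34 to 0.32), and under median centring of the arrays it was 0.0019. A dim second probe set ran from 16.9 to 28.8 in FOG1 ki/ki and from 18.9 to 33.4 in control, with a log2 difference of -0.20.

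Itgb1, the common partner of Itga6, Itga5 and Itga4, read lower in all 3 replicate numbers, where 18.1% of all tested probe sets did. Its brightest probe set gave 853, 827 and 866 in FOG1 ki/ki replicates 1, 2 and 3 (mean 849 ± 20, SD, n = 3), against 867, 1124 and 1112 in control replicates 1, 2 and 3 (1034 ± 145, SD, n = 3). The groups met almost exactly, since FOG1 ki/ki replicate 3 and control replicate 1 were nearly equal, and the FOG1 ki/ki arrays were the closer together. Its log2 difference was -0.27 (SE 0.16, limma adjusted p = 0.9999, 95% interval -0.65 to 0.11), and -0.02, -0.44 and -0.35 within replicate numbers 1, 2 and 3.

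A second Itgb1 probe set read 761, 643 and 672 in FOG1 ki/ki replicates 1, 2 and 3, against 776, 898 and 993 in control replicates 1, 2 and 3, and the groups again did not overlap. Its log2 difference was -0.35 (limma adjusted p = 0.97, and 0.316 with the block). Lower in FOG1 ki/ki with no overlap held for 3 of the 21 integrin probe sets, these 2 and one of Itgal, and for 4.9% of all tested. The 3 dimmer Itgb1 probe sets tested, with signals of 10.9 to 59.3, did not all share the direction, at log2 differences of -0.058, 0.31 and 0.06. The one at 0.31 was higher in all 3 replicate numbers.

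Itga6, the laminin receptor subunit, was bright and varied little, with an SD of 0.125 over the 6 arrays on the log2 scale. It read 2217, 2302 and 2780 in FOG1 ki/ki replicates 1, 2 and 3, against 2338, 2648 and 2486 in control replicates 1, 2 and 3. Both ends of the FOG1 ki/ki range lay outside that of control. The log2 difference was -0.039 (SE 0.12, limma adjusted p = 0.9999), and the interval of -0.32 to 0.24 was the narrowest of the 9 genes. Its second probe set read 1383, 1620 and 1909 in FOG1 ki/ki and 1602, 2027 and 1934 in control, a log2 difference of -0.18.

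Itga5, the classical fibronectin receptor subunit, followed the replicate number more than the genotype. It read 310, 543 and 432 in FOG1 ki/ki replicates 1, 2 and 3, against 331, 778 and 341 in control replicates 1, 2 and 3, so that replicate 2 was the highest of both groups. Its log2 difference was -0.091 (SE 0.37, limma adjusted p = 0.9999, 95% interval -0.94 to 0.76). Within replicate numbers 1, 2 and 3 the difference was -0.09, -0.51 and 0.33. Without control replicate 2 it turned to 0.30. The second tested Itga5 probe set was dim, at 3.95 to 38.5 in FOG1 ki/ki and 8.2 to 20.4 in control. Fibroblasts also express this receptor. Fibroblast and stromal markers stood highest on the replicate 2 arrays, as did the macrophage, neutrophil and lymphoid marker sums given below. Over 13 genes the fibroblast and stromal sum was 1177, 3217 and 238 in FOG1 ki/ki replicates 1, 2 and 3. In control replicates 1, 2 and 3 it was 2118, 8197 and 249. Of these markers 12 of 13 lay below control, with a median log2 difference of -0.71 and 0 called in either fit, and their part in the Itga5 values was not tested.

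Itga4, whose product joins Itgb1 in the receptor for VCAM-1 that progenitors and several myeloid cells also carry, was the only gene whose brightest probe set stood higher. It read 822, 735 and 515 in FOG1 ki/ki replicates 1, 2 and 3 (mean 691 ± 158, SD, n = 3), against 491, 452 and 293 in control replicates 1, 2 and 3 (412 ± 105, SD, n = 3). The groups did not overlap, and replicate 3 was the lowest array of each. Higher with no overlap held for 1 of 21 integrin probe sets and for 5.35% of all tested. Itga4 differed by 0.73 on the log2 scale (SE 0.27, limma adjusted p = 0.693, 95% interval 0.10 to 1.35), and 0.72, 0.68 and 0.78 within replicate numbers 1, 2 and 3. With the block the SE was 0.11 and the adjusted p was 0.0693, still above the threshold, and leaving out any 1 array kept the difference between 0.51 and 0.92.

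The other tested Itga4 probe sets were dim, with signals of 9.06 to 63.3, and had log2 differences of 0.37, 0.33 and 0.28. One of them was higher in all 3 replicate numbers, and the other 2 were higher in numbers 1 and 2 and lower in number 3.

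**Figure D2:**
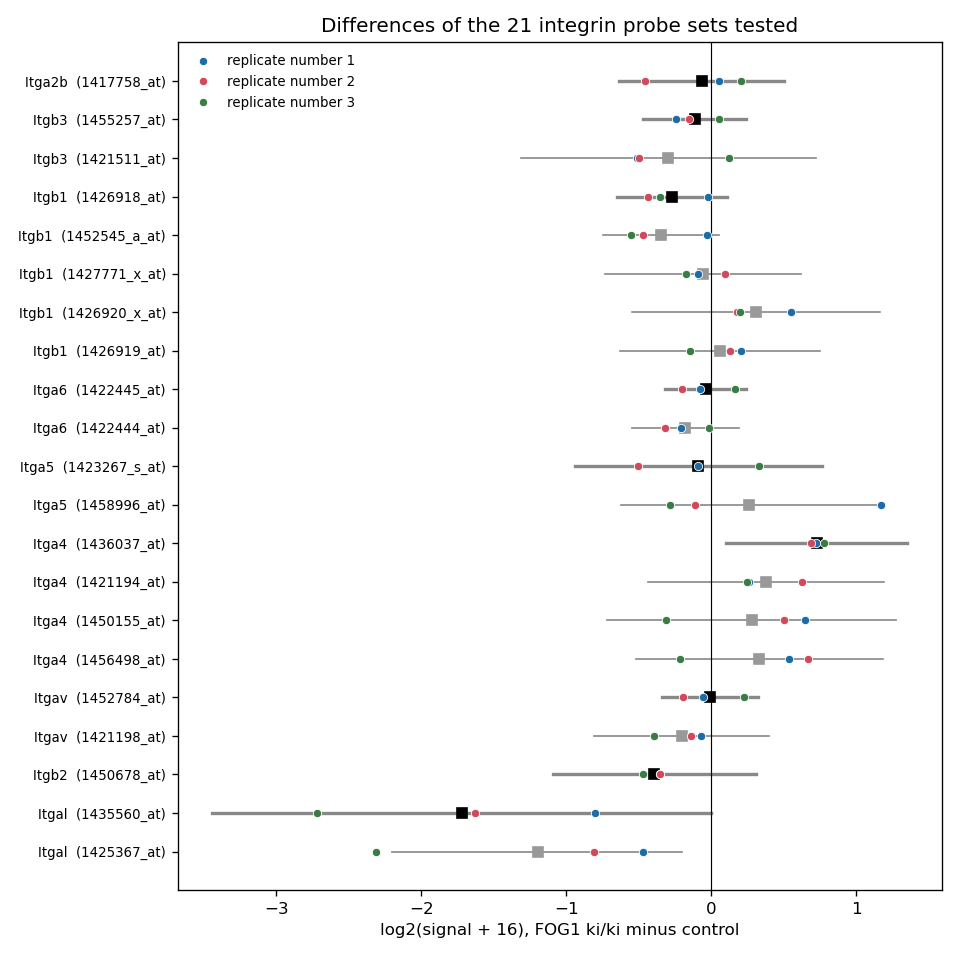
Difference in log2(signal + 16), FOG1 ki/ki minus control, of the 21 integrin probe sets tested, with squares for the mean difference, bars for its 95% interval from limma and coloured circles for the difference within each replicate number. Black squares and thick bars mark the brightest probe set of each gene. The 3 circles of Itga4 lie together between 0.68 and 0.78, and those of the brightest Itgal probe set spread from -0.80 to -2.72.

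Itgb2, the beta subunit of leukocyte integrins, read 744, 1234 and 1350 in FOG1 ki/ki replicates 1, 2 and 3, against 954, 1581 and 1881 in control replicates 1, 2 and 3. The groups overlapped because replicate 1 was low in both, but each FOG1 ki/ki array lay below the control array of its own number. Itgb2 differed by -0.39 on the log2 scale (SE 0.30, limma adjusted p = 0.9999, 95% interval -1.09 to 0.31), and -0.35, -0.35 and -0.47 within replicate numbers 1, 2 and 3. With the block the SE was 0.0911 and the adjusted p was 0.136. Without FOG1 ki/ki replicate 1 the difference was -0.13, and without control replicate 3 it was -0.19, which each leave a same-numbered array unmatched. Without both arrays numbered 1, 2 and 3 in turn it was -0.41, -0.41 and -0.35.

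Itgal, the alpha subunit of LFA-1, showed the greatest spread and the greatest mean difference of the 9 genes. It read 65.4, 102 and 185 in FOG1 ki/ki replicates 1, 2 and 3 (mean 117 ± 61.4, SD, n = 3), against 126, 348 and 1309 in control replicates 1, 2 and 3 (594 ± 629, SD, n = 3). The groups overlapped, because FOG1 ki/ki replicate 3 was above control replicate 1, and the FOG1+/+ array stood far above the rest. The log2 difference was -1.72 (SE 0.75, limma adjusted p = 0.854, and 0.109 with the block). It was -0.80, -1.63 and -2.72 within replicate numbers 1, 2 and 3, and -0.87 without control replicate 3.

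A dim second Itgal probe set ran the same way, at 10.5, 11.9 and 9.0 in FOG1 ki/ki replicates 1, 2 and 3, against 20.8, 32.8 and 108 in control replicates 1, 2 and 3. Its groups did not overlap, and its log2 difference was -1.20 (limma adjusted p = 0.674), -1.92 with a pseudocount of 1 and -0.59 with one of 64. Both Itgal probe sets thus had their highest value in control replicate 3, the only FOG1+/+ array. Its genotype and its replicate number cannot be told apart. Among the FOG1 ki/ki arrays replicate 3 was the highest for the brightest Itgal probe set and the lowest for the second.

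Among the 9 genes 1 was higher and 3 were lower in all 3 replicate numbers, where 22.2% and 18.1% of all tested probe sets were. A smaller signal in these bulk cultures can come from fewer cells of a type or from less RNA per cell, which cannot be told apart. Itgb2, Itgal and Itga4 are also expressed by other blood cells, so markers of those cells are given beside them.

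The monocyte and macrophage markers lay below control in 18 of 18 tested genes, with a median log2 difference of -0.74 and 0 genes called in either fit. Their summed signal over 19 genes was 5892, 16281 and 11228 in FOG1 ki/ki replicates 1, 2 and 3, against 15638, 21881 and 12116 in control replicates 1, 2 and 3. Control replicate 3 had the lowest macrophage sum of its group and the highest Itgal and Itgb2. FOG1 ki/ki replicate 1 had the lowest macrophage sum, Itgal and Itgb2 of its group. The macrophage sum, Itgal and Itgb2 were each lower in FOG1 ki/ki within replicate numbers 1, 2 and 3. Csf1r, the macrophage growth factor receptor, read 349, 1880 and 1303 in FOG1 ki/ki and 1289, 2513 and 1267 in control, so these transcripts were present on every array. Of the liver macrophage markers Cd5l read 28.5 to 73.2 in FOG1 ki/ki and 62.0 to 166 in control, Marco 10.1 to 14.3 and 11.7 to 59.0, Vsig4 0.23 to 9.6 and 1.96 to 83.2, and Clec4f 2.38 to 4.9 and 1.07 to 6.4. The part of these cells in the Itgb2 and Itgal values was not tested.

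LFA-1 is also abundant on lymphocytes. The summed signal of 9 lymphoid markers was 964, 1475 and 842 in FOG1 ki/ki replicates 1, 2 and 3, against 1134, 1563 and 579 in control replicates 1, 2 and 3. Of the 5 tested 2 lay above and 3 below control, with a median log2 difference of -1.0 and 0 called by limma in either fit. An unadjusted p under 0.05 was reached by 1 of them in the unblocked fit and by 4 in the blocked one. The interleukin 7 receptor gene Il7r read 105, 643 and 304 in FOG1 ki/ki and 677, 976 and 473 in control (log2 difference -1.24), and Nkg7, a gene of cytotoxic cells, read 686, 645 and 486 in FOG1 ki/ki and 205, 273 and 34.7 in control (2.06). The B lineage genes Ebf1 and Blnk had log2 differences of -1.0 and -1.03, and Cd79b one of 0.083. The other 4 markers were too dim to test, namely Cd3e, Cd3g and Cd2 of T cells and Cd79a of B cells, with signals from 0.0528 to 17.2. The part of lymphoid cells in the Itgal values was not tested.

 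Of the neutrophil and myeloid progenitor markers 10 of 14 lay below control, with a median log2 difference of -0.18 and 0 called in either fit. Their summed signal was 10753, 19760 and 5127 in FOG1 ki/ki and 16160, 18960 and 3303 in control, in order of replicate number, lowest on both replicate 3 arrays. The fibroblast and eosinophil sums and Itga4 were also lowest on both replicate 3 arrays, and Itgb2 was highest on both. Within replicate number 1 the neutrophil sum was lower in FOG1 ki/ki, and within numbers 2 and 3 it was higher. Itga4 was higher and Itgb2 lower within each number. The part of these cells in the Itgb2 and Itga4 values was not tested.

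Mast cell and basophil markers lay above control in 10 of 10 tested genes, with a median log2 difference of 1.16. Within replicate numbers 1, 2 and 3 the median was 0.89, 0.75 and 1.67. In number 1 Kit and Mcpt1 were lower, at -0.27 and -0.46, and the other tested genes were higher. The summed signal over 13 genes was 8608, 8557 and 8223 in FOG1 ki/ki replicates 1, 2 and 3. In control replicates 1, 2 and 3 it was 4304, 4318 and 750. Much of the sum came from Fcer1a and Gata2. Fcer1a read 3317, 3696 and 3912 in FOG1 ki/ki and 1891, 2168 and 93.1 in control. Gata2, which is not restricted to these cells, read 1797, 2017 and 1767 in FOG1 ki/ki and 911, 1048 and 481 in control. Ms4a2, the beta chain of the IgE receptor, read 704, 564 and 189 in FOG1 ki/ki and 102, 62.9 and 13.3 in control, and with the block it rose (log2 difference 2.77, limma adjusted p = 0.0189). It was the only marker of that list called in either fit. Among mast cell protease genes, Cpa3 read 638, 382 and 170 in FOG1 ki/ki and 239, 224 and 68.2 in control (log2 difference 1.08), and Cma1 and Mcpt1 differed by 0.86 and 1.36. Tpsb2, Tpsab1 and Mcpt4 were too dim to test, at 0.1 to 16.3 in FOG1 ki/ki and 0.1 to 4.3 in control. The part of these cells in the Itga4 values was not tested.

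**Figure D3:**
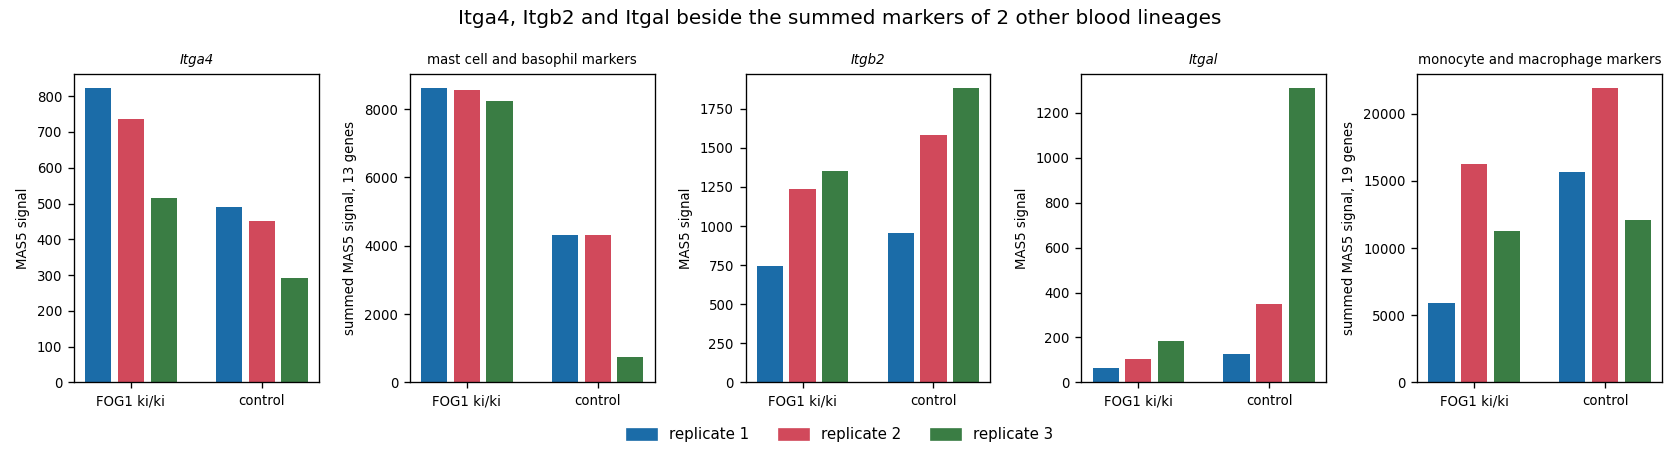
MAS5 signal of Itga4, Itgb2 and Itgal (brightest probe sets) on each array, beside the summed signal of 13 mast cell and basophil markers and of 19 monocyte and macrophage markers, with FOG1 ki/ki arrays at the left and control arrays at the right of each panel. Control replicate 3 has the lowest mast cell sum, 750, and the highest Itgal, 1309.

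The eosinophil, endothelial and erythroid marker lists held 0 genes called by limma in either fit. Genes with an unadjusted p under 0.05 numbered 0, 3 and 2 in the unblocked fit and 1, 4 and 3 in the blocked one, in that order of lists. Eosinophil markers summed to 1448, 2086 and 110 in FOG1 ki/ki and 2218, 1696 and 40 in control, in order of replicate number. Of 4 tested genes 2 lay above control, with a median log2 difference of -0.015. The median was -0.40, 0.31 and 0.25 within replicate numbers 1, 2 and 3. Without control replicate 3 it was -1.07, which leaves the low FOG1 ki/ki replicate 3 unmatched. Endothelial markers summed to 1303, 1708 and 1653 in FOG1 ki/ki and 862, 1098 and 1393 in control, with 3 of 8 tested above and a median of -0.24 (0.03 without control replicate 3). Most of the FOG1 ki/ki sum was Tek, at 912, 1176 and 1194, against 381, 370 and 204 in control. Clec4g went the other way, with a log2 difference of -1.21. Erythroid markers summed to 1079, 1606 and 1436 in FOG1 ki/ki and 1555, 2478 and 2202 in control, with 1 of 3 tested above and a median of -0.63. Most of each sum was the globin gene Hbb-b2, at 783, 1127 and 1077 in FOG1 ki/ki and 1303, 1977 and 1382 in control. The gene above control was Klf1 (log2 difference 1.86). A second globin gene, Hba-a1, was too dim to test, at 0.7 or less on all 6 arrays.

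The pattern over the 6 arrays was compared with other genes for the 2 integrin genes whose SD was at least 0.5 on the log2 scale, Itga4 and Itgal, against 3016 genes with as great an SD. Closest to Itga4 by Pearson r were Far2 (0.993), Ms4a2 (0.987) and Cadm3 (0.983). Closest to Itgal were the plexin gene Plxna4 (0.993), 1110046J04Rik (0.991) and Arpp21 (0.991). Plxna4 read 39.1, 41.8 and 105 in FOG1 ki/ki and 68.4, 156 and 594 in control, again highest in control replicate 3, the FOG1+/+ culture. Itga4 and Itgal ran opposite to each other (r = -0.94). With 6 arrays that share their genotype groups and replicate numbers, these coefficients describe likeness only.

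The remaining integrin genes were mostly dim. Of 17 other subunits 15 had a probe set of their own and 9 were tested, 2 above and 7 below control, with a median log2 difference of -0.35 and 0 called in either fit. Itga2, the collagen receptor subunit, read 12.5, 8.0 and 18.6 in FOG1 ki/ki and 11.7, 32.8 and 199 in control. Here control replicate 3, the FOG1+/+ array, was again far above the others. Itgax, which marks dendritic cells and some macrophages, read 30.6, 312 and 90.5 in FOG1 ki/ki and 269, 520 and 112 in control, in order of replicate number. Itgb5, a partner of Itgav, read 54.0, 187 and 125 in FOG1 ki/ki and 181, 510 and 186 in control. Itgb4, a laminin receptor subunit of epithelia, was dim at 2.4 to 8.85 in FOG1 ki/ki and 10.4 to 29.4 in control (limma adjusted p = 0.67). Each of these 4 had overlapping groups except Itgb4.

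Of the proteins that bind integrin tails or build adhesion sites 30 genes were tested, 11 above and 19 below control, with a median log2 difference of -0.11 and 0 called in either fit. The 4 with the smallest unadjusted p were Lims1, an adaptor bound to integrin-linked kinase (log2 difference -0.33), the parvin Parvg (0.73), the kinase Src (-0.95) and the actin crosslinker Actn1 (-0.81), with limma adjusted p of 0.912 or more. Parvg read 290, 388 and 298 in FOG1 ki/ki and 244, 242 and 111 in control.

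Of the integrin ligands 17 genes were tested, 3 above and 14 below control, with a median log2 difference of -0.48 and 0 called in either fit. Thbs1, a platelet granule protein that binds integrins and CD36, read 725, 789 and 300 in FOG1 ki/ki replicates 1, 2 and 3, against 1241, 1580 and 1633 in control replicates 1, 2 and 3. The groups did not overlap, with a log2 difference of -1.38 (limma adjusted p = 0.335, and 0.129 with the block). Icam1, a ligand of LFA-1, read 109, 220 and 54.6 in FOG1 ki/ki and 258, 748 and 64.6 in control. The other named ligand genes, the laminin chain gene Lama4 and Mfge8, had log2 differences of -0.48 and -0.79. The fibrinogen chain genes Fga, Fgb and Fgg, liver products that platelets take up, were at 5.41 or less on all 6 arrays.

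Of the membrane proteins that associate with integrins or share their adhesion sites 16 genes were tested, 3 above and 13 below control, with a median log2 difference of -0.29. Esam, an endothelial and platelet junction protein, was the only one called, and with the block alone it fell (log2 difference -1.90, limma adjusted p = 0.0439). It read 146, 63.0 and 98.7 in FOG1 ki/ki and 394, 292 and 580 in control. The tetraspanins Cd81 and Tspan33 had log2 differences of -0.70 and 2.18 and the scavenger receptor Cd36 one of -1.39, none of which passed in either fit.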

How the data were processed

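Probe set signals of 6 mouse arrays were used. The deposited values were intensities on a linear scale, made by the authors with MAS5, per the submitters' processing notes, whose version and settings are not given in the sources used here. The deposited values of replicate 3 of both groups carried more decimals than the others. Per the labels' protocols, NuGEN Ovation kits served to amplify and label the RNA. Genes come from the platform annotation, in which 34958 probe sets had 1 symbol, 932 several and 9211 none, the last including control probe sets.

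The 64 control probe sets and the lower 50% of the rest by mean log2(signal + 16), those under a signal of about 10.3, were left out. Each of the other 22519 probe sets was fitted by lmFit and then eBayes (trend on) of limma 3.58.1, under R 4.3.3. P-values were adjusted after Benjamini and Hochberg. The pseudocount of 16 understates the change of dim probe sets. A gene is given by its probe set with the highest mean. The other work used Python 3.11.15, pandas 2.3.3, numpy 2.4.6 and matplotlib 3.10.9. The fits were tested on simulated data.

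Replicate numbers come from the titles. Same-numbered arrays had deviations correlated at 0.438 or more and differently numbered ones at 0.0229 or less, so the numbers were taken to pair the arrays, before any comparison of calls. Deviations within a group sum to 0, so part of that contrast is built in. The fit without the block is the main one. The labels call the samples biological replicates.

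The member genes and gene lists were chosen with earlier results of these data known. Named genes were the 9 members, Zfpm1, the 3 genes most like each member with an SD of at least 0.5, and from each list of integrin-related genes up to 4 genes with the smallest unadjusted p and any that passed. Lists of cell type markers are given by their counts and sums, and of their genes only Ms4a2 and Gp6, which passed with the block, are named by that rule. Their other genes, and Fga, Fgb and Fgg, were named after their values were seen. The number of arrays limits the precision. Other pseudocounts, scalings, filters, the block, array weights and left-out arrays were tried as alternatives.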

Additional observations from a re-analysis of the deposited data

How the results depend on the processing

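With limma 0 integrin probe sets passed under any of the 19 alternatives, and between 0 and 7 had an unadjusted p under 0.05. Itgb3, Itgb1, Itga4, Itgb2 and Itgal kept their direction under all 19, Itgb3 between -0.27 and -0.0035, Itgb1 between -0.39 and -0.19, Itga4 between 0.51 and 0.92, Itgb2 between -0.67 and -0.13 and Itgal between -2.48 and -0.87. The lowest adjusted p over these alternatives was 0.0693 for Itga4, 0.109 for Itgal and 0.136 for Itgb2, each with the replicate block. Leaving out 1 array moved Itga2b between -0.33 and 0.069, Itga6 between -0.14 and 0.024, Itga5 between -0.30 and 0.30 and Itgav between -0.12 and 0.05. Without both arrays numbered 2 the differences turned positive for Itga2b (0.13), Itga6 (0.042), Itga5 (0.12) and Itgav (0.081). Itgav was also positive under median centring (0.0019) and without both arrays numbered 1 (0.013). The causes were not tested.

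Over all probe sets 15 passed, against 118 with the replicate block, 277 with array quality weights, 24 after quantile normalization, and 1 each when dim probe sets were kept and when the brightest 25% were used alone. Leaving out 1 array gave 0 to 3, and leaving out both arrays of a number gave 0, with 778 to 1225 at an unadjusted p under 0.05. The block without the filter, added after the data were seen, gave 0, with 4443 at an unadjusted p under 0.05. The block changed no integrin call.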
